A study of Mus musculus with 18 samples.

Results

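The collagens, laminins and structural matrix genes described here were taken from the deposited table as the protein-coding genes whose symbol names a collagen chain or a laminin chain, together with Fn1, Eln, Fbn1, Sparc, Dcn, Lum, Bgn, Postn, Nid1 and Hspg2. The rule found 51 of the 21254 genes in the table, of which 30 encode collagen chains, 11 encode laminin chains and 10 were added by name. RNA was sequenced from 3 populations of monocytes and macrophages sorted from mouse lungs 24 h after 1 dose of lipopolysaccharide (LPS) of Pseudomonas aeruginosa, given as 12.5 mg in 5 ml by nebulization over 15 min. All sorted cells were CD45+CD11b+. Monocyte-derived macrophages (moMs) were MHC-II-Ly6C+, transitional interstitial macrophages (tnsIMs, trIMs in the sample labels) were MHC-II+Ly6C+, and mature interstitial macrophages (matIMs) were MHC-II+Ly6C-. Each population came from WT mice and from Ezr-KOm mice, with 3 libraries in each of the 6 groups and 18 in all.

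Ezr-KOm mice carried floxed alleles of Ezr, which encodes the membrane-to-actin linker ezrin, and the Cre allele Cx3cr1tm1.1(cre)Jung/J. The WT mice carried the same Cre allele without floxed Ezr, so both genotypes share the Cre and the LPS, and untreated mice were not analysed here. Mice were on a C57BL/6 background, aged 3 to 5 months and of both sexes. Cre follows the Cx3cr1 promoter, which is also active in some cells outside these populations. Gene positions are given in GRCm39. Levels are in CPM, a gene's counts divided by the scaled total of its library, so that libraries of different depth can be compared. Library totals ranged from 16512783 to 48460995 counts. Ezr lay between 497 and 741 CPM in the WT libraries and between 93.8 and 282 CPM in the Ezr-KOm libraries, with log2 fold changes of -1.20 ± 0.24 (SE) in moMs, -1.62 ± 0.24 in tnsIMs and -2.29 ± 0.25 in matIMs. The adjusted p of edgeR was 0.0549, 0.00365 and 7.73e-05, so that Ezr itself missed the threshold of 0.05 in moMs. The sequenced cells came from 3 mice per genotype, with 3 libraries in each population, so the populations of a genotype can share mice. The labels do not tie libraries to mice, so the p-values measure the spread between these libraries.

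Extracellular matrix is the protein scaffold that surrounds cells. Fibrillar collagens give tissue its tensile strength, while type IV collagens and laminins polymerize into the sheet-like basement membranes beneath epithelium and endothelium. Fibroblasts, smooth muscle, endothelial and epithelial cells make most of the lung's matrix, and macrophages are known to secrete fibronectin and to take up and degrade collagen.

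Most matrix genes had their highest level in tnsIMs, with Fn1, Col27a1 and Col14a1 among the exceptions. In WT libraries, 27 of the 48 matrix genes tested rose from moMs to tnsIMs at an adjusted p under 0.05 and 0 fell, against 13% and 8.61% of all 15811 genes tested (edgeR's quasi-likelihood test). The median log2 fold change was 1.85 over the 48 matrix genes and 0.01 over all genes. From tnsIMs to matIMs, 34 of the 48 fell and 2 rose in WT libraries, where 10.2% of all genes fell and 8.32% rose. The median was -2.34, against 0.04 over all genes. The Ezr-KOm libraries showed 24 rises and 0 falls from moMs to tnsIMs (all genes: 9.23% and 5.04%), and 31 falls and 3 rises from tnsIMs to matIMs (all genes: 9.85% and 8.37%).

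Summed over the 50 matrix genes without Fn1, the level was 122 to 166 CPM in WT moMs, 524 to 594 CPM in WT tnsIMs and 105 to 125 CPM in WT matIMs. The matching ranges in Ezr-KOm libraries were 164 to 229.8, 441 to 691 and 119.8 to 133 CPM. In both genotypes every tnsIM library lay above every moM and matIM library. Sparc, Col4a1, Col4a2 and Col3a1 made up 51.6% to 55.6% of this sum in WT tnsIMs and 39.3% to 41.5% in WT matIMs. Of the 48 genes tested, 41 had their highest mean in tnsIMs in WT libraries and 38 in Ezr-KOm libraries.

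**Figure D1:**
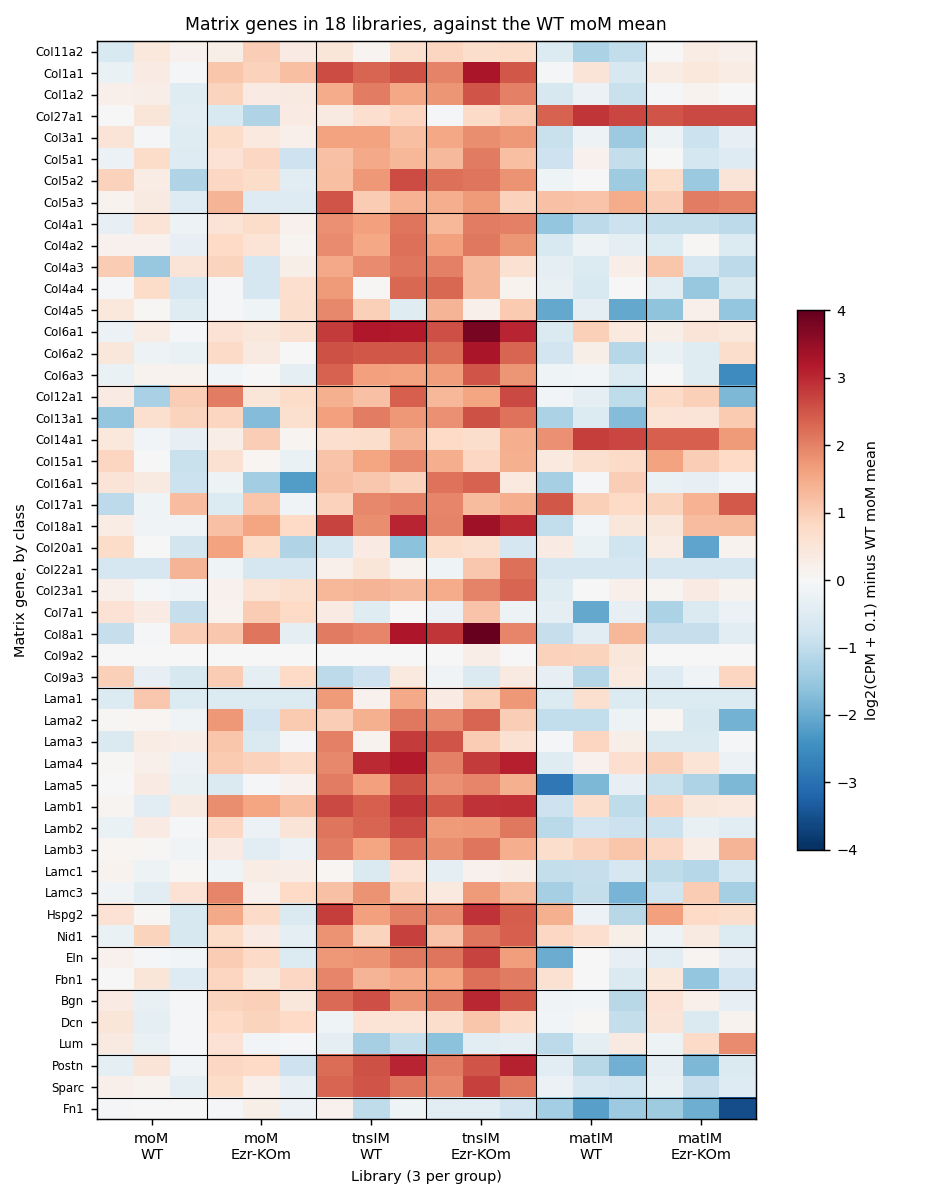
Level of 50 of the 51 matrix genes (rows, grouped by class) in each of the 18 libraries (columns), as log2(CPM + 0.1) minus the mean of the 3 WT moM libraries. Most rows are red in the tnsIM libraries of both genotypes, Col27a1 and Col14a1 are red in matIMs, and Fn1 (bottom row) is blue in matIMs.

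Transcripts of several other lung cell types moved in the same comparisons, but not all lists followed the matrix genes. The 8 endothelial markers tested (among them Cdh5, Cldn5 and Kdr) summed to 87.6 to 104 CPM in WT moMs, 278 to 479 CPM in WT tnsIMs and 46.8 to 72.2 CPM in WT matIMs, and 8 of 8 rose from moMs to tnsIMs and fell from tnsIMs to matIMs. The 10 epithelial markers summed to 199 to 229.8, 2646 to 4289 and 569.7 to 632 CPM, with 7 of 10 rising and then 6 of 10 falling. Over all genes 13% rose from moMs to tnsIMs and 10.2% fell from tnsIMs to matIMs in WT libraries. The 7 smooth muscle and pericyte markers summed to 15.9 to 17.9, 32.1 to 47.2 and 7.35 to 10.4 CPM, with 5 of 7 rising and 6 of 7 falling. In these lists no marker was at 0 in a whole group. The neutrophil sum fell from 304 to 426 CPM in WT moMs to 46.8 to 66.7 CPM in WT tnsIMs, although 3 of 6 markers rose and 1 fell. The alveolar macrophage sum fell from 5273 to 6587 CPM to 1146 to 1595 CPM, with 3 of 7 markers rising and 2 falling. The T and NK cell sum overlapped, at 14.3 to 16.1 and 15.1 to 19.7 CPM.

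The fibroblast list had 9 of its 10 markers in the table, and their sum was 53.0 to 68.2 CPM in WT moMs, 55.9 to 73.7 CPM in WT tnsIMs and 13.9 to 19.5 CPM in WT matIMs. Of the 8 fibroblast markers tested, 6 rose and 1 fell from WT moMs to WT tnsIMs (all genes: 13% and 8.61%). The marker that fell was Pi16, at 34.4 to 55.4 CPM in WT moMs and 3.42 to 9.44 CPM in WT tnsIMs. Pdgfra, a receptor that defines lung fibroblasts, lay at 2.24 to 3.77 CPM in WT moMs and 7.84 to 14.6 CPM in WT tnsIMs. The part of these other cell types in the matrix gene levels was not tested, and in bulk libraries fewer cells of a type and less RNA per cell cannot be told apart. The 9 macrophage and monocyte markers, which include Csf1r, Cd68 and Lyz2, summed to 35865 to 42656, 20788 to 31027 and 12695 to 14710.0 CPM in the same WT groups.

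**Figure D2:**
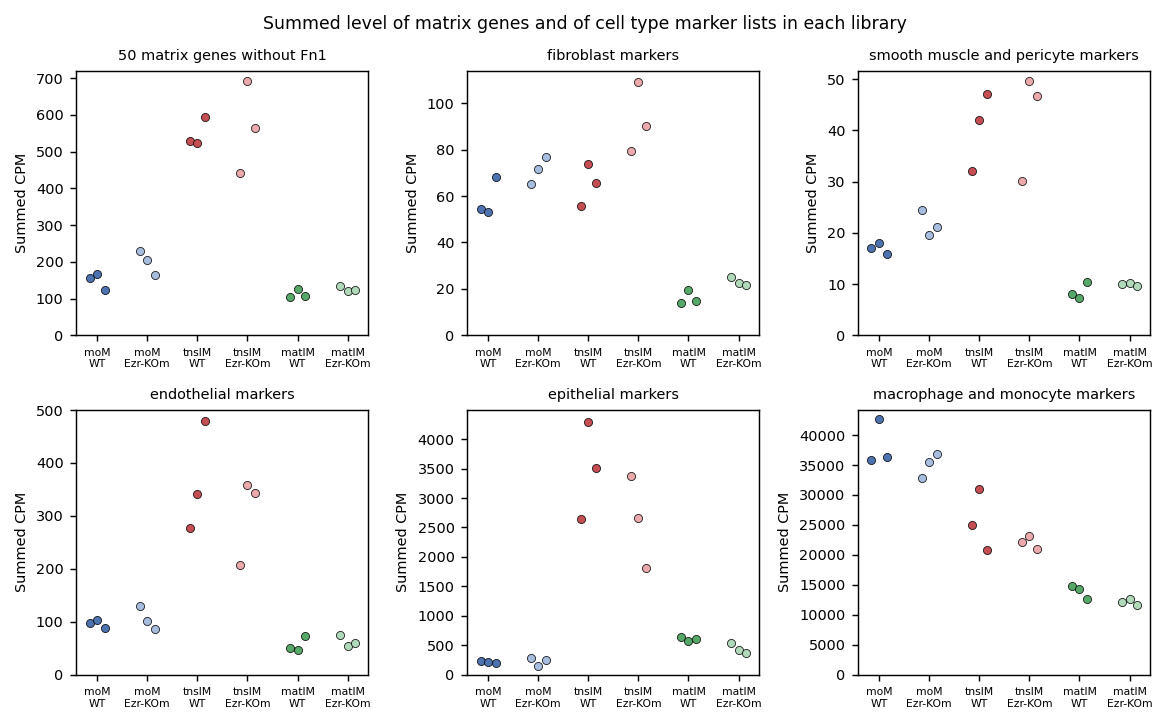
Summed CPM in each library (points, 3 per group) of the 50 matrix genes without Fn1 and of 5 cell type marker lists. The matrix sum, the endothelial sum and the epithelial sum are highest in tnsIMs of both genotypes, while the macrophage and monocyte sum is highest in moMs.

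Fn1 (ENSMUSG00000026193, chr1:71624679-71692359, minus strand) encodes fibronectin, an adhesive glycoprotein that cells bind through integrins and on which collagen is assembled. It held 96.5 to 97.4% of all matrix counts in WT moMs and 81.0 to 90.6% in WT tnsIMs. Fn1 measured 4435, 4583 and 4622 CPM in the 3 WT moM libraries, 5086, 2237 and 4074 CPM in the WT tnsIM libraries and 1775, 1009 and 1645 CPM in the WT matIM libraries. The moM and tnsIM libraries overlapped, and all matIM libraries lay below both. Its log2 fold change from tnsIMs to matIMs was -1.36 ± 0.37 (SE), adjusted p = 0.0123, and from moMs to matIMs it was -1.62 ± 0.37 (SE), adjusted p = 0.00284. The first of these calls was lost without replicate 1 of the WT tnsIMs or replicate 2 of the WT matIMs (adjusted p up to 0.0687). From moMs to tnsIMs no difference passed the test (-0.26 ± 0.36 (SE), adjusted p = 0.658).

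In Ezr-KOm libraries Fn1 measured 4328, 5296 and 3892 CPM in moMs, 3334, 3309 and 2699 CPM in tnsIMs and 1682, 1179 and 392 CPM in matIMs. The tnsIM libraries lay below the moM libraries, but the difference did not pass the test (-0.53 ± 0.36 (SE), adjusted p = 0.378). Replicate 3 of the Ezr-KOm matIMs was the lowest of all 18 libraries for Fn1. Fn1 fell from tnsIMs to matIMs (-1.52 ± 0.37 (SE), adjusted p = 0.00598) and from moMs to matIMs (-2.05 ± 0.37 (SE), adjusted p = 4.5e-04). Per kb of exonic length, Fn1 averaged 240.0 CPM in WT tnsIMs, against 26.2 CPM per kb for Sparc, 13.6 for Col4a1 and 3.07 for Col1a1. These lengths join the exons of all annotated transcripts of a gene.

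Of the 8 fibrillar collagen genes, 5 rose from moMs to tnsIMs in WT libraries (all genes: 13%), with a median log2 fold change of 1.57 over the 8. Col1a1 (ENSMUSG00000001506, chr11:94827050-94843868, plus strand) encodes a chain of type I collagen, the main collagen of connective tissue. Its levels were 2.90, 4.39 and 3.39 CPM in WT moMs, 21.7, 17.9 and 20.8 CPM in WT tnsIMs and 3.37, 5.04 and 2.24 CPM in WT matIMs. No tnsIM library overlapped with the other populations, whose ranges overlapped each other. The log2 fold changes were 2.50 ± 0.31 (SE), adjusted p = 1.65e-05 from moMs to tnsIMs and -2.51 ± 0.30 (SE), adjusted p = 8.73e-06 from tnsIMs to matIMs.

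Col1a2 (ENSMUSG00000029661, chr6:4504814-4541544, plus strand), the partner chain of type I collagen, stood at 6.26, 6.51 and 3.86 CPM in WT moMs, 15.2, 22.8 and 16.1 CPM in tnsIMs and 3.46, 4.53 and 2.87 CPM in matIMs. It rose by 1.70 ± 0.26 (SE), adjusted p = 1.37e-04 on the log2 scale and then changed by -2.31 ± 0.27 (SE), adjusted p = 5.04e-06. The ratio of Col1a1 counts to Col1a2 counts within a library ranged over 0.464 to 0.878 in WT moMs, 0.788 to 1.43 in WT tnsIMs and 0.779 to 1.11 in WT matIMs, which overlap.

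Type III collagen, which forms fibrils with type I, comes from Col3a1 (ENSMUSG00000026043, chr1:45350698-45388866, plus strand), with 18.5, 12.6 and 9.25 CPM in WT moMs, 39.9, 39.9 and 29.7 CPM in WT tnsIMs and 7.01, 11.2 and 4.66 CPM in WT matIMs. Its tnsIM libraries stood apart from both other populations, which overlapped. The log2 fold change was 1.44 ± 0.28 (SE), adjusted p = 0.00114 from moMs to tnsIMs and -2.26 ± 0.29 (SE), adjusted p = 1.6e-05 from tnsIMs to matIMs. Col3a1 was also lower in matIMs than in moMs (-0.82 ± 0.29 (SE), adjusted p = 0.0429), but that call was lost with library totals or upper-quartile factors as the scaling, with only the WT libraries in the fit, and without replicate 1 or 2 of the WT moMs or replicate 1 or 3 of the WT matIMs.

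Col27a1 (ENSMUSG00000045672, chr4:63132241-63253228, plus strand), a fibrillar collagen known from cartilage, followed another order. It measured 1.08, 1.57 and 0.787 CPM in WT moMs, 1.46, 1.84 and 2.08 CPM in WT tnsIMs and 6.03, 8.67 and 7.56 CPM in WT matIMs, and every WT matIM library lay above every moM and tnsIM library. The log2 fold change was 2.05 ± 0.36 (SE), adjusted p = 4.51e-04 from tnsIMs to matIMs and 2.69 ± 0.38 (SE), adjusted p = 3.07e-05 from moMs to matIMs. In Ezr-KOm libraries the levels were 0.696, 0.424 and 1.41 CPM in moMs, 1.08, 1.96 and 2.33 CPM in tnsIMs and 6.81, 7.36 and 7.46 CPM in matIMs, with 2.00 ± 0.36 (SE), adjusted p = 4.81e-04 from tnsIMs to matIMs. From moMs to tnsIMs in Ezr-KOm libraries its log2 fold change was 1.10 ± 0.38 (SE), adjusted p = 0.0654, where a block for the replicate number gave an adjusted p of 0.0392. This difference passed in 7 of 15 alternatives, the block among them, with adjusted p from 0.0108 to 0.226 over all 15.

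Col11a2 (ENSMUSG00000024330, chr17:34258411-34285659, plus strand), a chain of the cartilage collagen type XI, measured 1.88, 3.98 and 3.35 CPM in WT moMs, 4.13, 3.17 and 4.58 CPM in WT tnsIMs and 2.00, 1.15 and 1.42 CPM in WT matIMs. It fell from tnsIMs to matIMs (-1.39 ± 0.31 (SE), adjusted p = 0.00312) and was lower in matIMs than in moMs (-1.02 ± 0.31 (SE), adjusted p = 0.0203), although the libraries of those 2 populations overlapped. That second call was lost with only the WT libraries in the fit, and without replicate 2 or 3 of the WT moMs or replicate 2 or 3 of the WT matIMs. The minor fibrillar chains Col5a1, Col5a2 and Col5a3 stayed at or below 5.21 CPM in every library. Col5a3 had 3 counts in all over the WT moM libraries and 27 over the WT tnsIM libraries, a ratio of 9.25 in CPM with an exact 95% interval from counting error of 2.85 to 47.7.

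Of the 5 type IV collagen genes, 2 rose from moMs to tnsIMs and 5 fell from tnsIMs to matIMs in WT libraries (all genes: 13% and 10.2%). The products of Col4a1 and Col4a2 form the main network of basement membranes. Col4a1 (ENSMUSG00000031502, chr8:11248423-11362826, minus strand) and Col4a2 (ENSMUSG00000031503, chr8:11362805-11499287, plus strand) lie head to head and overlap by 22 bases in GRCm39, so that reads there may not tell the 2 genes apart. The RefSeq promoter windows of this pair, from 250 bases before to 50 bases after each start, are shown because both genes moved together and the windows share 78 bases. The coordinates are in GRCm38.p6, chr8:11312777-11313076 on the minus strand for Col4a1 and chr8:11312555-11312854 on the plus strand for Col4a2. Capitals mark matches to the CCAAT box (CCAAT) and the GC box (GGGCGG) on either strand.
Col4a1: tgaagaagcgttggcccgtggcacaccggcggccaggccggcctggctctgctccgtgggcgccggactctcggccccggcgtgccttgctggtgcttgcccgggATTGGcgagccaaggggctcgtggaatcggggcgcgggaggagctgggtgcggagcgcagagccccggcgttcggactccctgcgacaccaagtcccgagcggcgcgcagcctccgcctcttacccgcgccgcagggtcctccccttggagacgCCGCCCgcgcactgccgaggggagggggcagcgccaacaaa
Col4a2: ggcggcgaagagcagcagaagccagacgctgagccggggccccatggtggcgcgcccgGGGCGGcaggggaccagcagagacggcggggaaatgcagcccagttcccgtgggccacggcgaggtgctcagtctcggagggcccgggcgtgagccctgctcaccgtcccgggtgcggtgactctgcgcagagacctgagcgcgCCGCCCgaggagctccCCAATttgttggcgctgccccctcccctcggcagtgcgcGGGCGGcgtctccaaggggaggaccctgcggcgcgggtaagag

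The Col4a1 window held 1 CCAAT and 1 GGGCGG, both on the strand opposite to the one printed. The Col4a2 window held 1 CCAAT on the printed strand and 3 copies of GGGCGG, 2 on the printed strand and 1 on the other. The GGGCGG of the Col4a1 window lies in the shared bases and is also the last one in the Col4a2 window. Over all 32851 RefSeq promoter windows of 300 bases, 37.4% held CCAAT and 35.7% held GGGCGG on either strand. The matches describe the letters of these windows.

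Col4a1 measured 21.7, 39.9 and 23.6 CPM in WT moMs, 97.2, 86.2 and 121 CPM in WT tnsIMs and 9.36, 13.2 and 15.1 CPM in WT matIMs. The 3 populations did not overlap, with tnsIMs highest and matIMs lowest. Its log2 fold changes were 1.84 ± 0.25 (SE), adjusted p = 4.08e-05 from moMs to tnsIMs, -3.01 ± 0.26 (SE), adjusted p = 2.73e-07 from tnsIMs to matIMs and -1.18 ± 0.25 (SE), adjusted p = 0.00154 from moMs to matIMs.

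Col4a2 had 14.2, 14.1 and 10.0003 CPM in WT moMs, 46.9, 37.0 and 57.8 CPM in WT tnsIMs and 8.25, 10.9 and 9.65 CPM in WT matIMs, and its moM and matIM libraries overlapped. The log2 fold changes were 1.89 ± 0.23 (SE), adjusted p = 1.71e-05 from moMs to tnsIMs and -2.30 ± 0.24 (SE), adjusted p = 1.52e-06 from tnsIMs to matIMs. The ratio of Col4a1 to Col4a2 counts in a library was 2.07 to 2.33 in WT tnsIMs and 1.13 to 1.56 in WT matIMs, without overlap. In WT moMs it was 1.53 to 2.83, which overlapped with both. The Ezr-KOm libraries held 40.3, 45.1 and 30.9 CPM of Col4a1 in moMs, 68.6, 114 and 112 CPM in tnsIMs and 14.0, 14.0 and 13.1 CPM in matIMs, again without overlap. Col4a3, Col4a4 and Col4a5, the chains of the specialized membranes of alveoli and glomeruli, did not exceed 2.74 CPM in any library. These 3 genes fell from tnsIMs to matIMs in WT libraries, with log2 fold changes of -2.24, -2.50 and -3.41. Col4a5 rested on few counts, 35, 11 and 5 in WT tnsIMs and 0, 5 and 0 in WT matIMs, and its CPM overlapped between these populations.

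The 3 genes of type VI collagen, a beaded filament at the border of basement membranes, rose from moMs to tnsIMs and fell from tnsIMs to matIMs in both genotypes. Col6a1 (ENSMUSG00000001119, chr10:76544626-76562002, minus strand) had the smallest p of all matrix genes for tnsIMs against moMs. Its levels were 1.82, 2.69 and 2.05 CPM in WT moMs, 15.4, 20.9 and 20.2 CPM in WT tnsIMs and 1.42, 4.27 and 2.83 CPM in WT matIMs, and the tnsIM libraries lay far above the other populations, which overlapped. The log2 fold change was 3.10 ± 0.34 (SE), adjusted p = 6.18e-06 from moMs to tnsIMs and -2.73 ± 0.33 (SE), adjusted p = 9.71e-06 from tnsIMs to matIMs. For Col6a2 and Col6a3 the rise was 2.57 and 2.02 on the log2 scale in WT libraries and 2.36 and 2.36 in Ezr-KOm libraries.

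Of the 14 other collagen genes, 12 were tested and 4 rose from moMs to tnsIMs in each genotype (all genes: 13% in WT and 9.23% in Ezr-KOm). Col18a1 (ENSMUSG00000001435, chr10:76888012-77002382, minus strand) encodes the basement membrane collagen whose C-terminal fragment is endostatin. It measured 1.42, 1.04 and 1.02 CPM in WT moMs, 8.05, 4.44 and 10.2 CPM in WT tnsIMs and 0.532, 1.07 and 1.60 CPM in WT matIMs. The tnsIM libraries did not overlap with the others, and moMs and matIMs overlapped. Its log2 fold changes were 2.72 ± 0.44 (SE), adjusted p = 2.07e-04 and then -2.81 ± 0.43 (SE), adjusted p = 1.16e-04. The gene overlaps Slc19a1 in the annotation.

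Col23a1 (ENSMUSG00000063564, chr11:51180747-51474745, plus strand), a transmembrane collagen, was 2.50, 2.07 and 1.93 CPM in WT moMs, 5.55, 5.64 and 5.49 CPM in WT tnsIMs and 1.51, 2.14 and 2.50 CPM in WT matIMs, with log2 fold changes of 1.36 ± 0.26 (SE), adjusted p = 9.52e-04 and -1.44 ± 0.26 (SE), adjusted p = 5.38e-04. Col13a1 (ENSMUSG00000058806, chr10:61674015-61814887, minus strand), also a transmembrane collagen, did not exceed 2.57 CPM in any library. It fell from WT tnsIMs to WT matIMs by 3.70 on the log2 scale (adjusted p = 0.00262).

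Col14a1 (ENSMUSG00000022371, chr15:55171146-55384199, plus strand), a collagen that binds to fibril surfaces, was like Col27a1 highest in matIMs. It measured 1.20, 0.787 and 0.669 CPM in WT moMs, 1.42, 1.46 and 2.35 CPM in WT tnsIMs and 3.33, 6.49 and 6.07 CPM in WT matIMs. All WT matIM libraries lay above all libraries of the other WT populations, with log2 fold changes of 1.59 ± 0.37 (SE), adjusted p = 0.00414 against tnsIMs and 2.60 ± 0.39 (SE), adjusted p = 6.44e-05 against moMs. In Ezr-KOm libraries it reached 4.98, 4.92 and 3.02 CPM in matIMs, with 1.04, 1.81 and 0.926 CPM in moMs and 1.58, 1.48 and 2.50 CPM in tnsIMs (1.23 ± 0.36 (SE), adjusted p = 0.0215, against tnsIMs). That call was lost without replicate 1 or 2 of the Ezr-KOm tnsIMs or replicate 1 or 2 of the Ezr-KOm matIMs (adjusted p up to 0.0979). The 7 dendritic cell markers, which include Ccr7 and Fscn1, were highest in matIMs too, with 5 of 7 rising from tnsIMs to matIMs in WT libraries (all genes: 8.32%). They summed to 58.6 to 63.7 CPM in WT moMs, 163 to 228 CPM in WT tnsIMs and 2853 to 3595 CPM in WT matIMs. The 5 B and plasma cell markers summed to 9.28 to 13.7, 62.2 to 101 and 451 to 603 CPM in the same groups, with 5 of 5 rising from tnsIMs to matIMs. The study's gating took CD11b+ cells from the CD11c- fraction. The part of these cell types in the Col27a1 and Col14a1 levels was not tested.

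Over the full span from moMs to matIMs, 3 of the 48 matrix genes rose and 6 fell in WT libraries (all genes: 13.4% and 11.4%). The genes that rose were Col27a1, Col14a1 and Lamb3, and those that fell were Col4a1, Fn1, Lamb2, Lamc1, Col11a2 and Col3a1. Without replicate 2 of the WT moMs, 2 rose and 3 fell, with the share over all genes not counted. In Ezr-KOm libraries 3 rose and 8 fell (all genes: 12.5% and 10.7%), the former again Col27a1, Col14a1 and Lamb3. The median log2 fold change of the 48 was -0.41 in WT and -0.67 in Ezr-KOm libraries, against 0.01 over all genes in each.

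Laminins are cross-shaped trimers of an alpha, a beta and a gamma chain that nucleate basement membranes. Of the 10 laminin genes tested, 6 rose from moMs to tnsIMs and 9 fell from tnsIMs to matIMs in each genotype (all genes: 13% and 10.2% in WT, 9.23% and 9.85% in Ezr-KOm). Lamb2 (ENSMUSG00000052911, chr9:108356935-108367729, plus strand), a beta chain of mature basement membranes, measured 2.39, 3.73 and 2.80 CPM in WT moMs, 13.3, 15.2 and 18.6 CPM in WT tnsIMs and 1.33, 1.67 and 1.57 CPM in WT matIMs. The 3 populations did not overlap. The log2 fold changes were 2.39 ± 0.27 (SE), adjusted p = 8.28e-06, then -3.36 ± 0.29 (SE), adjusted p = 2.69e-07, and -0.97 ± 0.28 (SE), adjusted p = 0.0169 for matIMs against moMs. Without replicate 2 of the WT moMs, or without replicate 1 of the WT matIMs, that last difference no longer passed the test.

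Lamc1 (ENSMUSG00000026478, chr1:153094668-153208532, minus strand), the gamma chain of most laminins, had levels of 15.1, 11.8 and 14.0 CPM in WT moMs, 14.2, 9.005 and 20.3 CPM in WT tnsIMs and 6.92, 7.09 and 8.53 CPM in WT matIMs. The moM range lay within the tnsIM range (0.09 ± 0.25 (SE), adjusted p = 0.829), and the matIM libraries lay below both populations (-0.95 ± 0.25 (SE), adjusted p = 0.0114, against tnsIMs). Replicate 3 of the WT tnsIMs decided that call, since without it the adjusted p was 0.0585. Lamc1 was lower in matIMs than in moMs (-0.86 ± 0.25 (SE), adjusted p = 0.0174), a call lost with library totals as the scaling (adjusted p = 0.0521).

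Lamb3 (ENSMUSG00000026639, chr1:192890007-193026186, plus strand) encodes the beta chain of an epithelial laminin, and the gene overlaps G0s2 and Hsd11b1 in the annotation. It measured 2.11, 2.07 and 1.81 CPM in WT moMs, 8.51, 6.09 and 9.36 CPM in WT tnsIMs and 3.33, 3.89 and 4.43 CPM in WT matIMs, without overlap between the 3 populations. It rose from moMs to tnsIMs (2.00 ± 0.30 (SE), adjusted p = 1.24e-04) and fell from tnsIMs to matIMs (-1.04 ± 0.29 (SE), adjusted p = 0.0151). In matIMs it stayed above moMs (0.96 ± 0.30 (SE), adjusted p = 0.025), a difference that lost its call without any 1 of 5 libraries, replicate 1 of the WT matIMs being the exception. Without replicate 1 of the WT matIMs, the fall from tnsIMs had an adjusted p of 0.0557. Lama3, an alpha chain gene of epithelial laminins, had 1 count in all over the Ezr-KOm matIM libraries and 31 over the Ezr-KOm tnsIM libraries.

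Lama4 (ENSMUSG00000019846, chr10:38841511-38986184, plus strand), an alpha chain of vascular laminins, measured 0.740, 0.829 and 0.591 CPM in WT moMs and 3.00, 6.28 and 7.21 CPM in WT tnsIMs (2.93 ± 0.43 (SE), adjusted p = 9.81e-05). It fell to 0.488, 0.812 and 1.19 CPM in WT matIMs (-2.71 ± 0.42 (SE), adjusted p = 1.32e-04). Lamb1 (ENSMUSG00000002900, chr12:31315233-31379643, plus strand), a beta chain of many laminins, measured 0.854, 0.539 and 1.02 CPM in WT moMs, 5.38, 4.502 and 6.27 CPM in WT tnsIMs and 0.399, 1.32 and 0.335 CPM in WT matIMs. It rose by 2.74 ± 0.42 (SE), adjusted p = 1.25e-04 on the log2 scale and then changed by -2.98 ± 0.42 (SE), adjusted p = 4.41e-05. Lamb1 overlaps Dld, a mitochondrial enzyme gene on the opposite strand.

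The matricellular protein SPARC, which binds collagen without being part of the fibre, is encoded by Sparc (ENSMUSG00000018593, chr11:55285326-55314009, minus strand). Its levels were 25.4, 24.2 and 17.2 CPM in WT moMs, 109.9, 127 and 97.9 CPM in WT tnsIMs and 18.8, 13.9 and 12.7 CPM in WT matIMs. The tnsIM libraries lay far above the others, with log2 fold changes of 2.33 ± 0.27 (SE), adjusted p = 9.54e-06 and then -2.88 ± 0.28 (SE), adjusted p = 6.86e-07. In Ezr-KOm libraries Sparc measured 36.4, 25.5 and 17.5 CPM in moMs, 83.8, 145 and 95.9 CPM in tnsIMs and 18.2, 11.5 and 15.3 CPM in matIMs, with 2.03 ± 0.27 (SE), adjusted p = 5.21e-05 from moMs to tnsIMs. Periostin (Postn), the other matricellular gene, rose by 2.62 ± 0.46 (SE), adjusted p = 4.89e-04 on the log2 scale from WT moMs to WT tnsIMs.

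The small leucine-rich proteoglycans regulate fibril assembly, and 1 of their 3 genes rose from moMs to tnsIMs. Bgn (ENSMUSG00000031375, chrX:72527208-72539539, plus strand), encoding biglycan, measured 4.78, 3.07 and 3.66 CPM in WT moMs, 18.6, 22.9 and 13.5 CPM in WT tnsIMs and 3.41, 3.50 and 1.68 CPM in WT matIMs, with 2.26 ± 0.32 (SE), adjusted p = 6.86e-05 and then -2.68 ± 0.33 (SE), adjusted p = 9.37e-06. Dcn (ENSMUSG00000019929, chr10:97315471-97354005, plus strand), encoding decorin, overlapped between all 3 WT populations with 4.04, 2.15 and 2.76 CPM in moMs, 2.54, 4.25 and 4.27 CPM in tnsIMs and 2.66, 2.99 and 1.45 CPM in matIMs. None of its differences between WT populations passed the test (smallest adjusted p = 0.232). Lum (ENSMUSG00000036446, chr10:97400990-97408565, plus strand), encoding lumican, stayed at or below 0.633 CPM in every WT library.

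Eln and Fbn1, which encode the core and the scaffold of elastic fibres, rose from WT moMs to WT tnsIMs by 1.94 and 1.63 on the log2 scale and fell in matIMs with log2 fold changes of -2.52 and -1.59. Nid1 and Hspg2, which link the laminin and collagen networks, rose by 1.88 and 2.85, and of these Nid1 fell in matIMs (-1.43 ± 0.46 (SE), adjusted p = 0.0348). Hspg2 rested on few counts, 4, 3 and 1 in WT moMs and 33, 9 and 20 in WT tnsIMs. Col22a1, Col9a2 and Lama1 were too low to be tested. Of the 51 matrix genes, 35 had a count in every library.

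**Figure D3:**
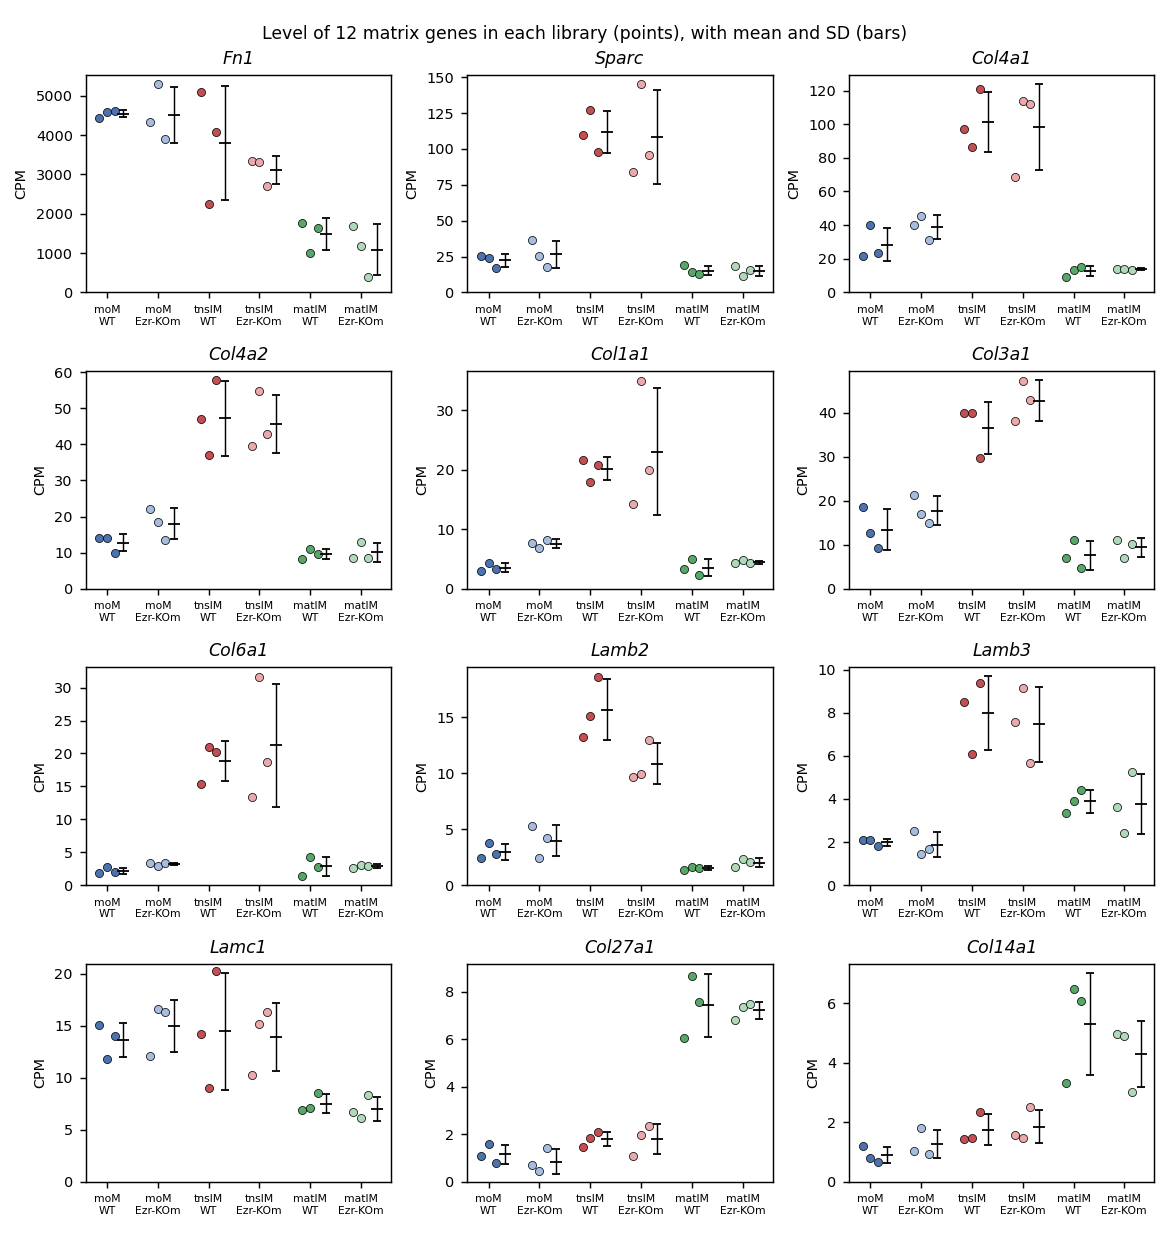
CPM of 12 matrix genes in each library (points, 3 per group), with the mean and SD of each group beside them; every axis starts at 0 and has its own scale. Most of the genes peak in tnsIMs of both genotypes, whereas Fn1 and Lamc1 are lowest in matIMs and Col27a1 and Col14a1 are highest there.

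**Figure D4:**
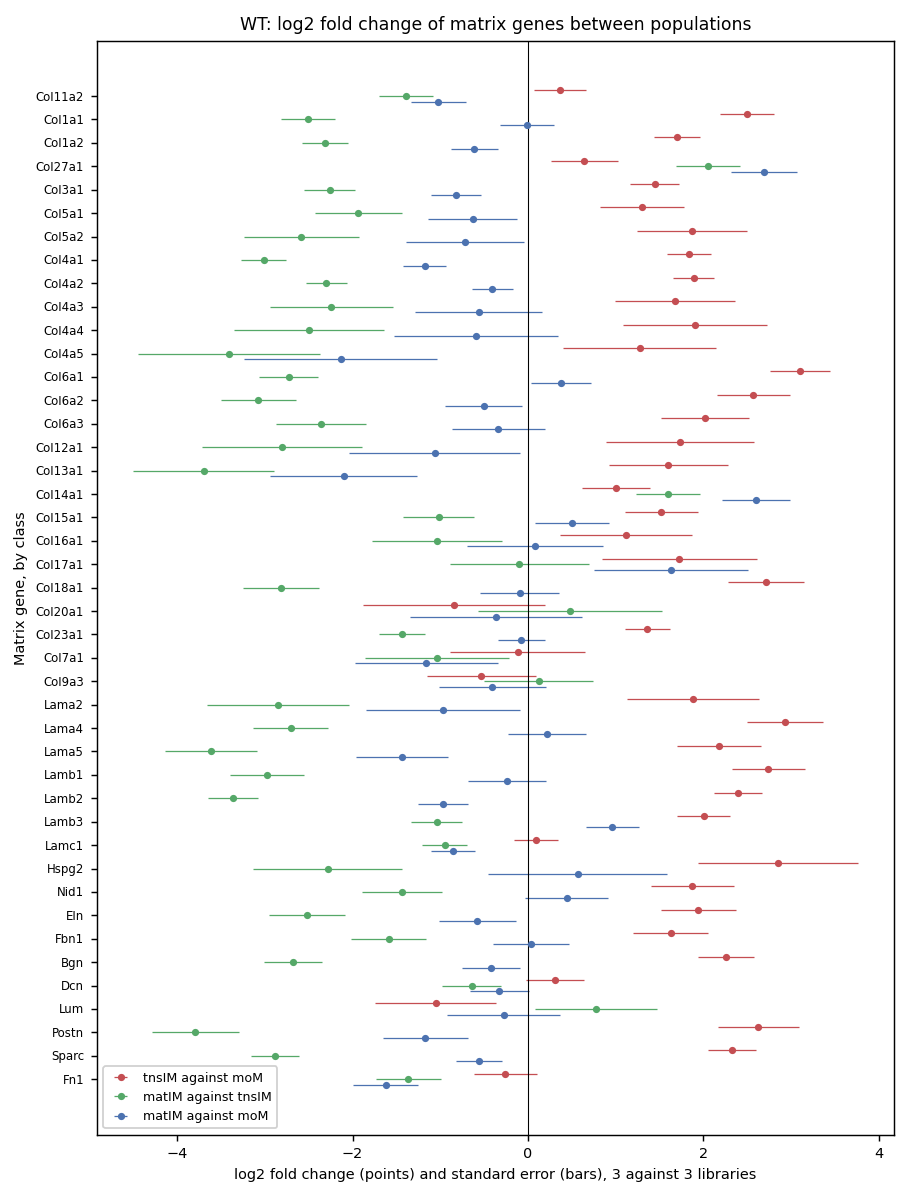
Log2 fold changes (points) with standard errors (bars) between WT populations for 43 of the 48 matrix genes tested, leaving out among others Col5a3, Col8a1, Lama3 and Lamc3, which had 1 to 3 counts in all in some group. The tnsIM against moM values lie mostly right of 0 and the matIM against tnsIM values mostly left of it.

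The comparison of Ezr-KOm with WT asked whether matrix genes differ between the genotypes. At an adjusted p under 0.05, 0 of the 48 matrix genes passed in moMs, 0 in tnsIMs and 0 in matIMs (edgeR), where 0.171%, 0.164% and 0.152% of all genes did. At an unadjusted p under 0.05 there were 7, 2 and 6 (all genes: 3.74%, 3.24% and 3.84%). DESeq2 called 1 in moMs, Lamb1, and 0 in the other populations, and its share over all genes was not counted. The study called genes by another rule, which asks for a log2 fold change beyond 0.75 in either direction and p under 0.05 before adjustment. By it, 6 matrix genes were higher in Ezr-KOm moMs and 0 were lower (all genes: 1.55% and 0.961%). The counts were 0 and 0 in tnsIMs (all genes: 1.08% and 0.759%) and 5 and 0 in matIMs (all genes: 1.41% and 0.987%).

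The 48 genes had a median log2 difference of 0.46 in moMs, of 0.14 in tnsIMs and of 0.28 in matIMs, against 0.0022, 0.002 and -0.0014 over all genes. In moMs 38 of the 48 values were above 0, against 50.5% of all genes. The 3 Ezr-KOm moM libraries lay above the 3 WT moM libraries for 8 matrix genes and below them for 0 (all genes: 4.45% and 4.07%). In tnsIMs they lay above for 3 and below for 2 (all genes: 3.05% and 2.76%), and in matIMs above for 5 and below for 1 (all genes: 5.03% and 5.12%).

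Lamb1 had the smallest p in moMs. It measured 3.09, 2.51 and 1.94 CPM in Ezr-KOm moMs and 0.854, 0.539 and 1.02 CPM in WT moMs, without overlap, a log2 difference of 1.64 ± 0.41 (SE), unadjusted p = 8.87e-04, adjusted p = 0.25. In matIMs the Ezr-KOm libraries had 1.58, 1.10 and 1.05 CPM, which overlapped with the WT libraries at 0.399, 1.32 and 0.335 CPM (0.86 ± 0.42 (SE), unadjusted p = 0.0558, adjusted p = 1). Leaving out 1 library moved that matIM value between 0.53 and 1.76, and Lamb1 met the study's rule in 4 of 13 alternatives, among them those without replicate 2 of the WT or replicate 3 of the Ezr-KOm matIMs. In tnsIMs the Ezr-KOm libraries had 4.74, 6.40 and 6.61 CPM and the log2 difference was 0.13 ± 0.37.

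Col1a1 was 7.66, 6.79 and 8.24 CPM in Ezr-KOm moMs, above every WT moM library, and the log2 difference was 1.08 ± 0.30 (SE), unadjusted p = 0.00203, adjusted p = 0.407. The other populations had differences of 0.20 ± 0.28 in tnsIMs and 0.34 ± 0.30 in matIMs. Col18a1 met the rule in moMs and in matIMs. It measured 2.74, 3.59 and 2.07 CPM in Ezr-KOm moMs (1.28 ± 0.43 (SE), unadjusted p = 0.00833, adjusted p = 0.828) and 1.61, 2.86 and 2.89 CPM in Ezr-KOm matIMs (1.18 ± 0.43 (SE), unadjusted p = 0.0132, adjusted p = 1), above every WT library of the same population in each case. In tnsIMs it measured 4.86, 13.1 and 9.71 CPM, with a log2 difference of 0.29 ± 0.39.

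The other genes that met the rule in moMs were Lama4, Dcn and Bgn. Lama4 was 1.57, 1.43 and 1.28 CPM in Ezr-KOm moMs (0.98 ± 0.43 (SE), unadjusted p = 0.0364, adjusted p = 1). Dcn was 5.13, 5.44 and 5.11 CPM (0.82 ± 0.33 (SE), unadjusted p = 0.0235, adjusted p = 1) and Bgn was 7.09, 7.44 and 5.16 CPM (0.78 ± 0.32 (SE), unadjusted p = 0.0237, adjusted p = 1). These 3 genes did not overlap with WT moMs. Lama4 no longer met the rule without replicate 1 or 3 of the WT or replicate 1 or 2 of the Ezr-KOm moMs. For Dcn this held without replicate 2 or 3 of the WT moMs, and for Bgn also without replicate 1 or 2 of the Ezr-KOm moMs.

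In matIMs, Col11a2 had the smallest p, with 2.94, 3.65 and 3.40 CPM in Ezr-KOm libraries, all above the WT libraries (1.13 ± 0.31 (SE), unadjusted p = 0.00167, adjusted p = 0.407). Col13a1 was 0.574, 0.550 and 0.838 CPM in Ezr-KOm and 0.0887, 0.214 and 0.0373 CPM in WT matIMs, without overlap (2.50 ± 0.82 (SE), unadjusted p = 0.00678, adjusted p = 0.777). Lum was 0.394, 0.860 and 2.01 CPM in Ezr-KOm and 0.177, 0.342 and 0.633 CPM in WT matIMs, which overlapped (1.46 ± 0.62 (SE), unadjusted p = 0.0293, adjusted p = 1). Lamc3 (ENSMUSG00000026840, chr2:31777303-31836551, plus strand), a laminin gamma chain, had 3, 18 and 1 counts in Ezr-KOm and 1, 2 and 0 counts in WT matIMs. The ratio of its summed counts, each relative to library size, was 6.61 (exact 95% interval from counting error 1.98 to 34.5), and replicate 2 held most of the Ezr-KOm counts. Lamc3 no longer met the rule without that library or without replicate 1 or 3 of the WT matIMs, Lum without replicate 1 or 2 of the WT or replicate 3 of the Ezr-KOm matIMs, and Col18a1 without replicate 1 of the WT matIMs. Without replicate 2 of the WT matIMs, 9 matrix genes were higher and 1 lower by the rule, in place of 5 and 0. The share over all genes without that library was not counted.

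In tnsIMs the smallest p belonged to Col23a1, at 6.15, 8.86 and 11.3 CPM in Ezr-KOm and 5.55, 5.64 and 5.49 CPM in WT libraries, without overlap (0.66 ± 0.25 (SE), unadjusted p = 0.016, adjusted p = 1). Lamb2 was 9.68, 9.90 and 13.0 CPM in Ezr-KOm tnsIMs, below every WT tnsIM library (-0.53 ± 0.25 (SE), unadjusted p = 0.0499, adjusted p = 1). Fn1 overlapped between genotypes in each population, with log2 differences of -0.01 ± 0.36 in moMs, -0.29 ± 0.36 in tnsIMs and -0.44 ± 0.36 in matIMs. The matIM value was -0.91 without replicate 1 and -0.031 without replicate 3 of the Ezr-KOm matIMs, and the former met the study's rule.

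Values of other cell types' markers also differed with the genotype, although 0 of the 8 fibroblast markers tested passed an adjusted p under 0.05 in any population. The fibroblast sum was 65.2 to 76.9 CPM in Ezr-KOm moMs, 79.4 to 109 CPM in Ezr-KOm tnsIMs and 21.7 to 25.1 CPM in Ezr-KOm matIMs, against 53.0 to 68.2, 55.9 to 73.7 and 13.9 to 19.5 CPM in WT. The genotypes overlapped in moMs and not in the other populations. Of the 8, all had log2 differences above 0 in each population, and 3, 2 and 1 were higher by the study's rule (all genes: 1.55%, 1.08% and 1.41%). Pdgfra was 5.597 to 10.2 CPM in Ezr-KOm moMs and 3.77 to 4.95 CPM in Ezr-KOm matIMs, against 2.24 to 3.77 and 1.19 to 1.92 CPM in WT. In moMs the smooth muscle and pericyte sum was 19.5 to 24.4 CPM in Ezr-KOm against 15.9 to 17.9 CPM in WT, without overlap, and 7 of 7 of its markers had values above 0. The dendritic cell sum there was 66.5 to 72.8 against 58.6 to 63.7 CPM. Other lists went the other way. In matIMs the epithelial sum was 363 to 531 CPM in Ezr-KOm against 569.7 to 632 CPM in WT, without overlap. Of its 10 markers, 0 had values above 0. This was also so for 0 of the 8 endothelial markers in tnsIMs and 0 of the 5 B and plasma cell markers in matIMs. The sums of these last lists overlapped between the genotypes. In matIMs the macrophage and monocyte sum was lower too, at 11611 to 12673 CPM in Ezr-KOm against 12695 to 14710 CPM in WT, without overlap. Of its 9 markers, 3 had values above 0. All 6 neutrophil markers had values above 0 in matIMs, while their sums overlapped between the genotypes. The part of these transcripts in the genotype differences was not tested.

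**Figure D5:**
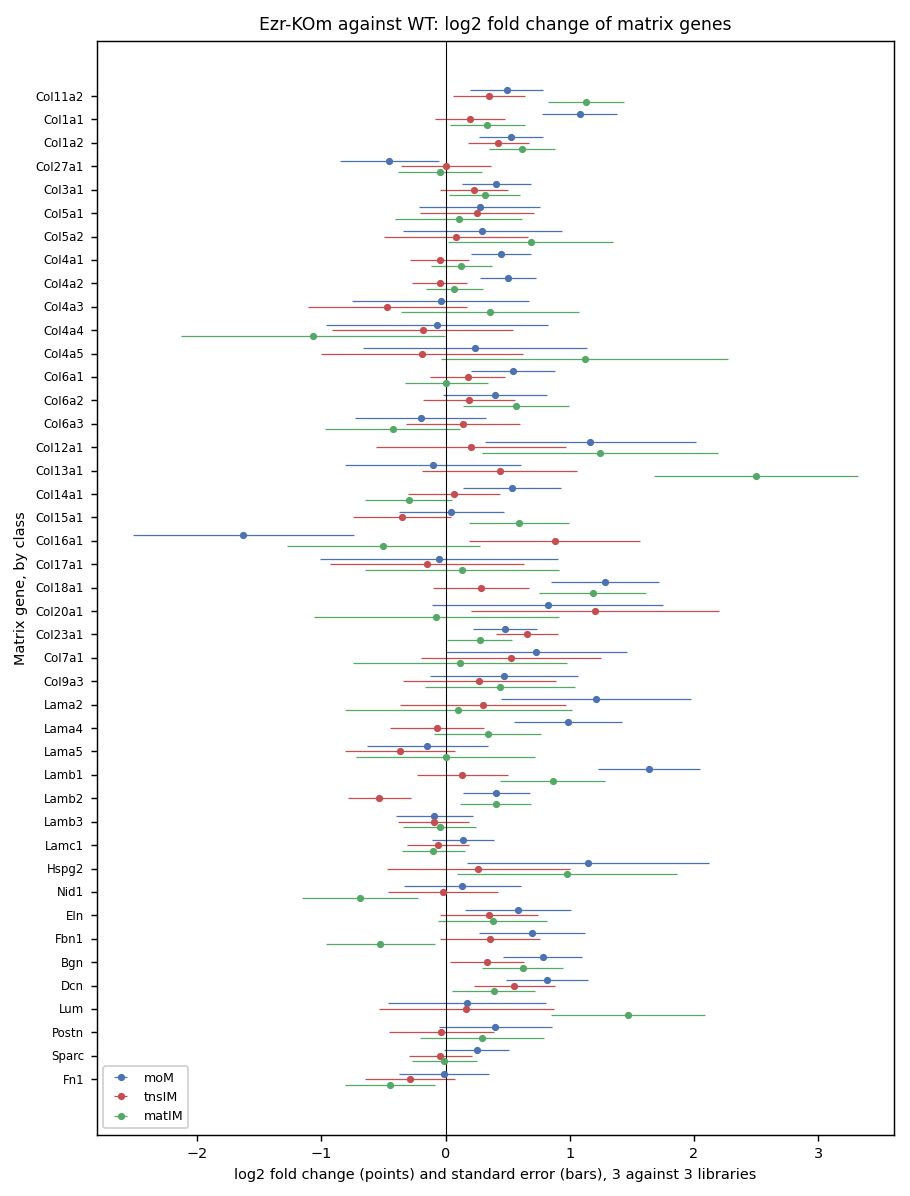
Log2 fold changes (points) with standard errors (bars) of 43 matrix genes in Ezr-KOm against WT libraries, for moMs, tnsIMs and matIMs. Lamb1, Col1a1 and Col18a1 lie right of 0 in moMs by more than their standard errors, and most tnsIM values lie near 0.

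Whether the genotype difference itself varied between populations was tested as an interaction. At an adjusted p under 0.05, 0 of the 48 matrix genes passed for tnsIMs against moMs, matIMs against moMs or matIMs against tnsIMs in edgeR, and 0 in DESeq2, as did 0% of all genes in edgeR. At an unadjusted p under 0.05 there were 4, 2 and 1 (all genes: 1.47%, 1.7% and 1.16%). The smallest p for tnsIMs against moMs was that of Lamb1, whose log2 difference between genotypes was lower in tnsIMs than in moMs (-1.502 ± 0.55 (SE), unadjusted p = 0.0136, adjusted p = 1). For matIMs against moMs it was Col13a1 (2.60 ± 1.09 (SE), unadjusted p = 0.0281, adjusted p = 1), and for matIMs against tnsIMs it was Lamb2 (0.94 ± 0.38 (SE), unadjusted p = 0.0245, adjusted p = 1).

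Other genes of the matrix were counted from 3 lists. Of 30 genes for collagen biosynthesis and cross-linking, 27 were tested, and 13 rose and 1 fell from moMs to tnsIMs in each genotype (all genes: 13% and 8.61% in WT, 9.23% and 5.04% in Ezr-KOm). In WT libraries the smallest p values were those of P4ha2, a collagen prolyl hydroxylase (2.41 ± 0.29, adjusted p = 1.53e-05), Serpinh1, the collagen chaperone HSP47 (2.58 ± 0.36), and Bmp1, the procollagen C-proteinase (2.95 ± 0.43). From tnsIMs to matIMs 14 fell and 2 rose in each genotype (all genes: 10.2% and 8.32% in WT, 9.85% and 8.37% in Ezr-KOm). Serpinh1 fell (-3.24 ± 0.37) and Pcolce, which enhances Bmp1, fell (-2.90 ± 0.36) in WT libraries, whereas the lysyl oxidase gene Loxl3 rose (2.88 ± 0.34). From moMs to matIMs in WT libraries 4 of the 27 rose and 3 fell, shares near those of all genes (13.4% and 11.4%). The smallest p values there were those of Loxl3 (3.30 ± 0.35), the lysyl hydroxylase gene Plod3 (-1.27 ± 0.14) and the prolyl hydroxylase gene P3h2 (4.46 ± 0.76). The Ezr-KOm libraries were led by P4ha2, P3h4 and Pcolce, which rose from moMs to tnsIMs (1.81 ± 0.28, 2.87 ± 0.46 and 1.89 ± 0.34).

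Of 30 matrix receptors and uptake genes, 28 were tested, and 8 rose and 0 fell from moMs to tnsIMs in each genotype (all genes: 13% and 8.61% in WT, 9.23% and 5.04% in Ezr-KOm). Bcam, a laminin receptor, rose in WT libraries (2.51 ± 0.24, adjusted p = 1.17e-06), as did the integrin genes Itga7 (5.14 ± 0.62) and Itga9 (1.61 ± 0.21). From tnsIMs to matIMs 16 fell and 4 rose in WT libraries (all genes: 10.2% and 8.32%), with Bcam (-3.14 ± 0.24), Itga3 (-3.09 ± 0.33) and Itgb5 (-1.28 ± 0.15) at the smallest p. The collagen receptor gene Ddr1 was higher in WT matIMs than in WT moMs (4.11 ± 0.45), and the gene of the collagen-binding integrin chain Itga1 was lower (-1.78 ± 0.24).

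Among 40 other matrix proteins, 37 were in the table and 34 were tested. From moMs to tnsIMs 21 rose and 3 fell in WT libraries (all genes: 13% and 8.61%), and from tnsIMs to matIMs 26 fell and 0 rose (all genes: 10.2% and 8.32%). Npnt, which encodes the basement membrane protein nephronectin, rose (2.49 ± 0.34), and so did Ltbp4, a binding protein of latent TGF-beta (2.25 ± 0.31). Vcan, which encodes the large proteoglycan versican, fell from moMs to tnsIMs (-2.36 ± 0.32, adjusted p = 3.99e-05) and was lower in matIMs than in moMs (-4.51 ± 0.35). Thbs1, encoding thrombospondin 1, was also lower in WT matIMs than in WT moMs (-3.86 ± 0.33). In WT moMs Vcan measured 136 to 199.8 CPM and Thbs1 measured 2327 to 4029.5 CPM.

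In the comparisons of genotypes, 0 genes of the 3 lists passed an adjusted p under 0.05 in any population. In list order, the study's rule gave 2, 0 and 5 genes higher and 0, 0 and 2 lower in Ezr-KOm moMs (all genes: 1.55% and 0.961%). In tnsIMs it gave 0, 0 and 0 higher and 0, 0 and 1 lower (all genes: 1.08% and 0.759%). The matIM counts were 2, 1 and 4 higher and 1, 0 and 0 lower (all genes: 1.41% and 0.987%). At most 3 per list and population are named here. By the study's rule Lox, which encodes the cross-linking enzyme lysyl oxidase, was higher in Ezr-KOm moMs (1.30 ± 0.35, unadjusted p = 0.00167) and in Ezr-KOm matIMs (1.12 ± 0.38, unadjusted p = 0.0084). Tnc, encoding tenascin C, was higher in both as well (1.505 ± 0.52 in moMs, 2.20 ± 0.53 in matIMs). Adamts2, a procollagen N-proteinase, and Ltbp4 were higher in Ezr-KOm moMs (1.63 ± 0.62 and 0.94 ± 0.31), and Ltbp2 was lower (-0.85 ± 0.34). In matIMs Pcolce, Sdc2, Prelp and Ogn were higher (0.94 ± 0.35, 0.99 ± 0.38, 0.94 ± 0.36 and 1.15 ± 0.47) and P4ha2 was lower (-0.75 ± 0.30, a call that 9 of 14 alternatives lost, the replicate block among them). In tnsIMs Mfap2 was lower (-0.999 ± 0.38). Several of these calls were lost when 1 library was left out. In matIMs this held for Pcolce, Sdc2 and Prelp without replicate 3 of the WT, for Sdc2 without replicate 2 and Prelp without replicate 3 of the Ezr-KOm, and for Ogn without replicate 1 of the WT or replicate 2 or 3 of the Ezr-KOm. In moMs Adamts2, Tnc and Ltbp2 were lost without replicate 3 of the WT, Adamts2 and Tnc also without replicate 2 and Ltbp2 without replicate 3 of the Ezr-KOm. Mfap2 was lost without replicate 1 or 3 of the Ezr-KOm tnsIMs.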

How the data were processed

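Libraries were made from sorted cells with SMART-Seq v4 and Nextera XT and sequenced as paired reads of 150 bases. The authors aligned reads to GRCm39 (Gencode M29) with STAR 2.7.9a and deposited raw counts per gene for the 18 libraries. The kit does not mark strand, so reads where genes overlap cannot be assigned to 1 gene by their strand. Here, counts of all 15811 genes passing filterByExpr were fitted in 1 model of the 6 groups with edgeR 4.0.16 (R 4.3.3), TMM factors and the quasi-likelihood test, with p-values adjusted by Benjamini-Hochberg over all genes tested. CPM values use the TMM factors. Populations and interactions were called at an adjusted p under 0.05, and genotypes also by the study's rule (unadjusted p under 0.05, absolute log2 fold change above 0.75). Comparisons that share a group are not independent. Intervals cover counting error only. Alternatives were DESeq2 1.42.0, other scalings and filters, libraries left out and a replicate block. The fit was tested on simulated data.

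Samples of the 2 genotypes with the same replicate number deviated together (r from 0.102 to 0.316 in 9 pairs, at most 0.0508 for different numbers), and so did populations of 1 genotype (0.0905 to 0.397 in 18 pairs, at most 0.0316). The numbers, which come from the labels, were taken as pairs in the block. Exonic lengths came from Gencode M39, and promoter windows from RefSeq (GRCm38.p6), where 34 of the 51 genes had one. Values per library were given for 9 genes chosen by name, for up to 8 called genes per comparison by smallest p, and for genes meeting the study's rule. From each list of 30 or 40 related genes, those with the smallest p were named. The matrix genes, lists and tests were chosen with earlier results of these data known. The values of 1 of the matrix genes are not reported here, although it is included in the counts, sums and medians.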

Additional observations from a re-analysis of the deposited data

How the results depend on the processing

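Of 231 alternatives for 15 counts of matrix genes called, 224 lay within 1.5 times the reported count. Several of the 15 counts were 0, among them those by genotype at an adjusted p under 0.05 and those of the interactions. A 0 that stayed 0 was taken as within, so the 224 say less about the genes called. In moMs DESeq2 called 1 gene by genotype in place of 0 (Lamb1). The count by the study's rule in matIMs, 5, was 2 with at least 10 counts in every library and 3 with only the libraries of the population. For matIMs against moMs in Ezr-KOm, DESeq2 called 17 in place of 11 (4 higher, 13 lower). Col13a1, Lum and Lamc3 had fewer than 10 counts in some libraries, so the filter on 10 counts left them untested. The cause of the other changes was not tested. Leaving out 1 library gave 4 to 10 by the study's rule in matIMs (10 without replicate 2 of the WT matIMs), 0 to 1 in tnsIMs (1 without replicate 1 of the Ezr-KOm tnsIMs) and 4 to 8 in moMs. It gave 5 to 9 for matIMs against moMs in WT libraries. Shares over all genes were not counted for these alternatives, so the counts cannot be set against a general change in calls.

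With the replicate number as a block, the counts by genotype were 0 at an adjusted p under 0.05 in each population, and 6, 0 and 5 by the study's rule in moMs, tnsIMs and matIMs. The block gave 29 for tnsIMs against moMs and 38 for matIMs against tnsIMs in WT libraries, with shares over all genes not counted. Of the genes named, the block changed the calls of Col27a1 (tnsIMs against moMs in Ezr-KOm) and P4ha2 (matIMs by genotype), and no other.

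Of 1872 alternatives for 126 differences of named matrix genes, 1772 kept the direction and the side of the threshold, and 7 turned the direction, none of a difference that passed its test, while 78 lost a call and 15 gained one. Of 982 alternatives for the genes named from the 3 lists, 957 did so and 25 lost a call. Leaving out 1 library, the log2 difference of Fn1 by genotype ranged from -0.14 to 0.077 in moMs (the latter without replicate 3 of the Ezr-KOm moMs) and from -0.56 to 0.020 in tnsIMs (the latter without replicate 1 of the WT tnsIMs). From moMs to tnsIMs in WT libraries Fn1 ranged from -0.55 to 0.041 (without replicate 2 of the WT tnsIMs). By genotype in tnsIMs, Col18a1 ranged from -0.062 to 0.58 and Col1a1 from -0.24 to 0.44, both lowest without replicate 2 of the Ezr-KOm tnsIMs. From moMs to tnsIMs Lamc1 ranged from -0.20 (without replicate 3 of the WT tnsIMs) to 0.36 in WT libraries, and in Ezr-KOm libraries it became 0.060 without replicate 1 of the Ezr-KOm tnsIMs. Scaling by library totals moved the median of all genes by up to 0.13 on the log2 scale. Depth limits the genes with few counts, among them Col5a3, Col8a1, Lama3 and Lamc3.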
